A study of Mus musculus with 6 samples.

Results

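The 10 genes described here are markers by which valve interstitial cells and fibroblasts are recognised, namely Pdgfra, Pdgfrb, Dpt, Pi16, Cd34, Tcf21, Thy1, S100a4, Fap and Vim. They were taken by name from the 23107 genes of the deposited count table, in which all 10 had a row. The table came from aortic valve tissue of mice from an outbred strain, aged 4 months, with 3 control and 3 mutant libraries. The labels call the controls wild type, whereas the methods of the study define a control as a mouse that lacks the caAcvr1 transgene, Nfatc1Cre or both, and which of these was sequenced is not given in the sources used here. The mutants, caAcvr1:Nfatc1Cre, carried a constitutively active form of the BMP type I receptor Acvr1, switched on by a Cre recombinase that was knocked into the Nfatc1 locus. That Cre recombines the endocardium, the mesenchyme derived from it, valve interstitial cells and cells at the junction of leaflet and wall, and the transgene depends on Cre for its activation. How many mice went into a library is not given in the sources used here, and the p-values therefore measure the spread between these libraries.

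Valve interstitial cells are the fibroblast-like cells that fill the leaflets and maintain their collagen, proteoglycan and elastin layers. No single gene marks them, and they are commonly recognised by a set of surface receptors, secreted matrix proteins, transcription factors and cytoskeletal proteins that they share with fibroblasts of the heart and the vessel wall. Several of these markers are also made by other cells of the valve region, such as Cd34 by endothelium, Pdgfrb by mural cells and S100a4 by leukocytes.

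In the mutant valves, 0 of the 10 markers passed the test at an adjusted p under 0.05 (edgeR quasi-likelihood F test, two-sided, Benjamini-Hochberg adjustment over 15354 genes tested), and neither did any other gene (0 of 15354, 0% of the genes tested). At an unadjusted p under 0.05 there were 2 markers, Dpt with the higher mean and Pdgfrb with the lower mean in the mutants, against 529 genes in all (3.45% of the genes tested, 1.59% with the higher and 1.86% with the lower mean in the mutants). In DESeq2, which called 26 genes (0.169% of the genes tested) at an adjusted p under 0.05, 0 of the 10 markers were called, and Dpt and Pdgfrb were again the 2 with an unadjusted p under 0.05 (4.45% of the genes tested). All 10 markers passed the minimum of 10 counts in at least 3 libraries. Levels are given as CPM, the count of a gene relative to the total of its library after scaling by the trimmed mean of M-values (TMM), and sets of 3 values follow the order of replicates 1, 2 and 3. The estimates were positive for 5 of them and negative for 5, and their median log2 fold change was -0.0054, beside 0.0097 over all genes tested. Pdgfrb was the one marker whose groups did not overlap, with the mutants below the controls, beside 8.87% of the genes tested (4.83% with the mutants below and 4.04% with the mutants above). Because the tissue was measured in bulk, fewer cells of a type and less RNA per cell cannot be told apart.

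**Figure D1:**
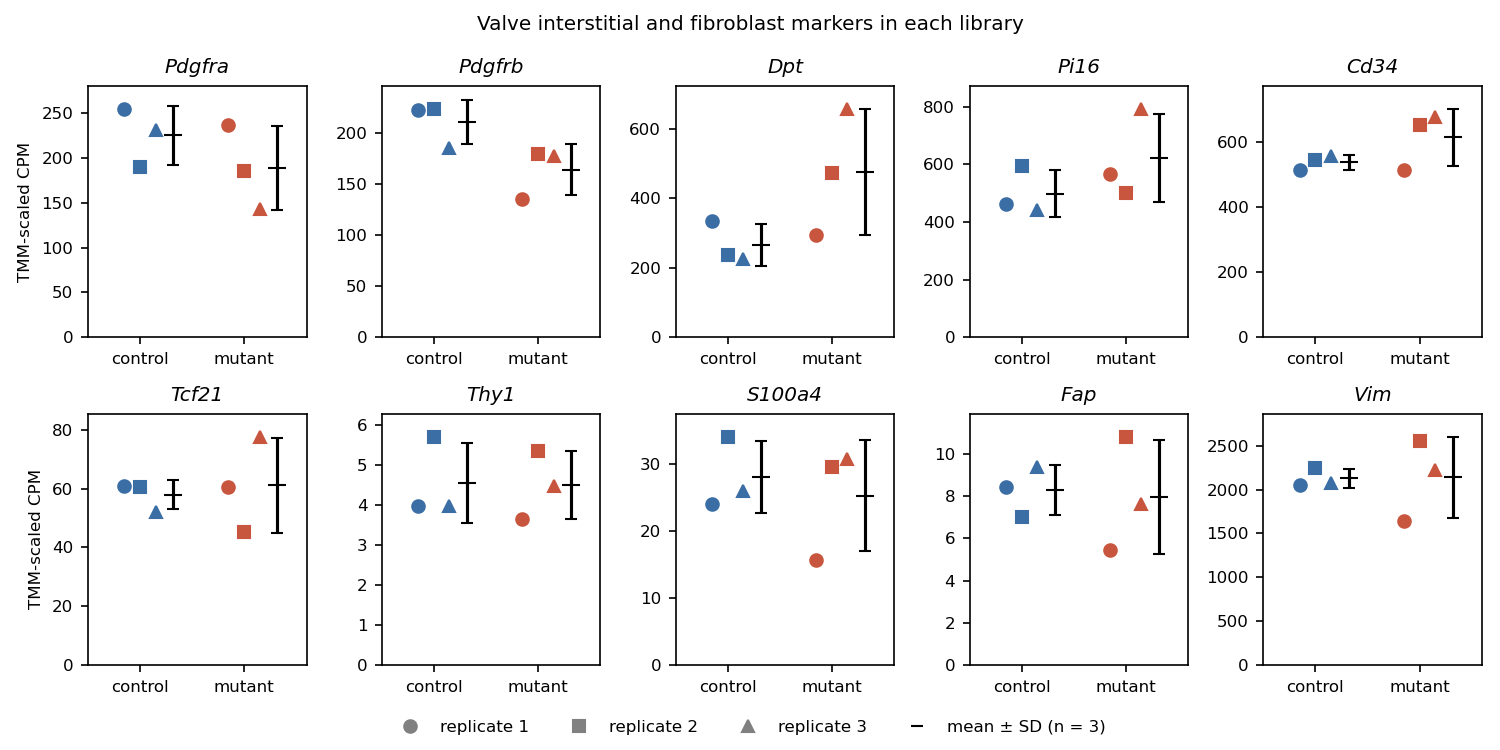
Level of each marker in the 6 libraries, in CPM (vertical axis from 0, one panel per gene), with controls in blue, mutants in red, one symbol per replicate number, and the mean and SD of 3 libraries as a black bar. Pdgfrb is the one panel in which all mutants (135 to 180 CPM) lie below all controls (186 to 224 CPM), and in Dpt mutant replicate 3 is the highest at 658 CPM.

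Between 32218345 and 55728852 fragments per library were assigned to genes, and the markers were read with 143 (Thy1 in mutant replicate 3) to 113876 (Vim in control replicate 2) counts. A pair of libraries stood apart in other tissue of the valve region. Control replicate 2 had the highest summed level of 11 smooth muscle and mural marker genes (13776 CPM, against 2435 to 6353 CPM elsewhere) and of 6 mesothelial marker genes (1259 CPM, against 119 to 543 CPM), with the lowest sum of 10 cardiomyocyte marker genes (12271 CPM, against 19260 to 40354 CPM). Mutant replicate 1 stood apart in its smooth muscle and mural sum, the lowest at 2435 CPM. Its cardiomyocyte sum was the highest (40354 CPM) but close to that of control replicate 3 (38720 CPM).

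Levels of different genes were compared per kilobase of merged exons. In the controls Vim, which encodes the intermediate filament protein vimentin of mesenchymal cells, stood highest at 449 ± 22.6 CPM per kilobase (SD, n = 3), above 99.4% of the 13830 tested genes with an exonic length. Dpt, which encodes the matrix protein dermatopontin, followed at 154 ± 35.1 CPM per kilobase (SD, n = 3), and then came Pi16 at 78.4 ± 13.02 and Cd34 at 73.8 ± 3.07 CPM per kilobase (SD, n = 3 each). The ranges of Pi16 and Cd34 overlapped, so that this pair had no order beyond its spread. S100a4 at 47.9 ± 9.16 and Pdgfrb at 38.5 ± 3.93 CPM per kilobase (SD, n = 3 each) came next, with ranges that nearly met (lowest S100a4 at 41.0, highest Pdgfrb at 40.9).

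Tcf21 at 24.6 ± 2.099 and Pdgfra at 22.5 ± 3.30 CPM per kilobase (SD, n = 3 each) overlapped. Thy1 at 1.52 ± 0.335 and Fap at 1.46 ± 0.211 CPM per kilobase (SD, n = 3 each) also overlapped, and both stood below the other 8 markers and above only 28.9% and 28.2% of the tested genes. The order of the means was the same in the mutants, from 451 ± 97.9 for Vim to 1.41 ± 0.478 CPM per kilobase for Fap (SD, n = 3 each). There the ranges of more neighbours overlapped, among them those of Vim and Dpt, of S100a4 and Pdgfrb, and of Pdgfrb and Tcf21, in addition to the 3 pairs that overlapped in the controls. The length is that of all annotated transcripts merged, which sets a gene with a long rare transcript too low.

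**Figure D2:**
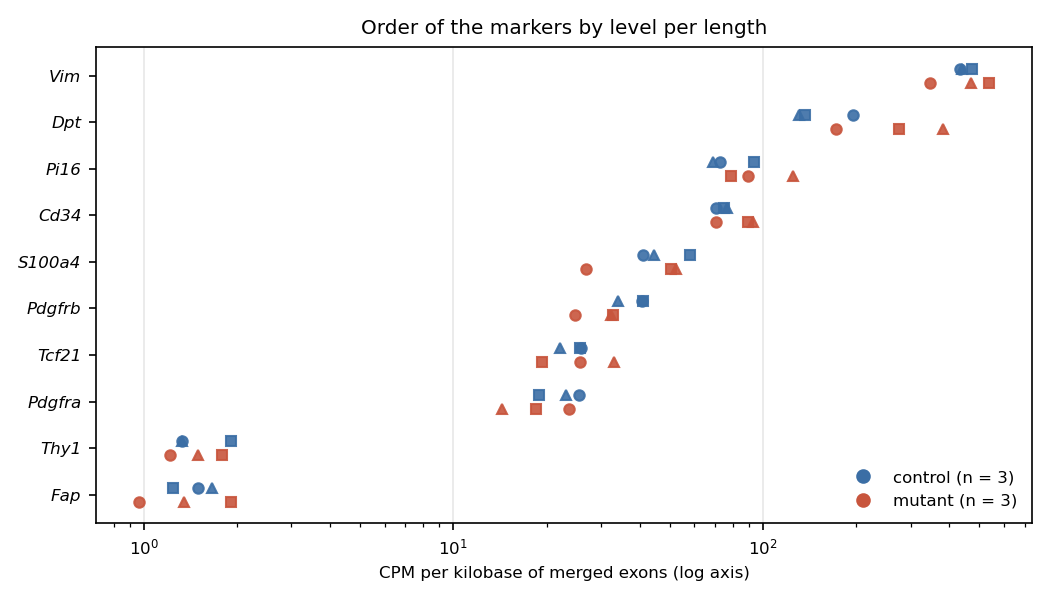
Level of the 10 markers per kilobase of merged exons in each library (horizontal log axis, CPM per kilobase), ordered by the control mean, with controls in blue and mutants in red (n = 3 each; circle, square and triangle for replicates 1, 2 and 3). Vim has the highest mean in both groups, Thy1 and Fap lie between 0.962 and 1.91 in all 6 libraries, and the other 7 markers lie between 14.3 and 382.

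Sequence upstream of the start was read from RefSeq (GRCm38.p6) for 7 of the 10 markers, Dpt, Cd34, Vim, S100a4, Pdgfra, Tcf21 and Pi16, and the table had no entry for Pdgfrb, Thy1 and Fap. In the 100 bases before the annotated start, the letters TATAAA, a core form of the TATA box, searched on both strands, was found in Vim and S100a4, and in 5.56% of all 32851 windows of this length. It began 32 bases before the start in Vim and 31 bases before it in S100a4. The E-box CAGCTG, a palindrome of the kind that basic helix-loop-helix factors bind, was in 0 of the 7 windows and in 5.81% of all windows, which says only that these letters are not in these windows. The window of S100a4 (chr3:90603670-90603769, plus strand), with these letters in capitals, and that of Dpt (chr1:164796563-164796662, plus strand), the marker with the largest difference, which held neither motif, are shown 5′ to 3′.
S100a4: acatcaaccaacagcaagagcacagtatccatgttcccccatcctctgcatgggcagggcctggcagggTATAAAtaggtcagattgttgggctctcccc
Dpt: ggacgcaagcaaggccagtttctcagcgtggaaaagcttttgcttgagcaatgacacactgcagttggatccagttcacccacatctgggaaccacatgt

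Pdgfra and Pdgfrb encode the receptor tyrosine kinases for platelet-derived growth factors. Pdgfra is the more widely used marker of fibroblasts and valve interstitial cells, and Pdgfrb is also strongly made by pericytes and smooth muscle cells. Pdgfrb (chromosome 18, 61045150 to 61085061 on GRCm38) was read at 222, 224 and 186 CPM in the controls and at 135, 180 and 177 CPM in the mutants. All mutants lay below all controls, and the gap between the groups, from 180 to 186 CPM, was narrower than the spread within either group. Its log2 fold change was -0.36 (standard error 0.15, 95% interval -0.71 to -0.0093, unadjusted p = 0.0456, edgeR adjusted p = 0.999). An exact permutation test of its log2 level gave a two-sided p of 0.1, the smallest that 3 against 3 allow, and 0.75 after adjustment over the 10 markers. Without mutant replicate 1, the lowest library, the log2 fold change was -0.24. The unadjusted p of Pdgfrb was above 0.05 under upper-quartile scaling (0.0568), library totals (0.0637), limma-voom (0.0538, and 0.0874 with sample quality weights) and the replicate block (0.0531), and in edgeR without control replicate 1 or 2 or mutant replicate 1 or 3 (up to 0.127).

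The smooth muscle and mural marker genes had summed levels of 6154 to 13776 CPM in the controls and 2435 to 6278 CPM in the mutants, and 8 of the 11 had negative and 3 positive estimates in the mutants (median log2 fold change -0.77). Mutant replicate 1 was lowest both in this sum and in Pdgfrb. Control replicate 2, however, had more than the other controls in this sum and nearly the same Pdgfrb level as control replicate 1. The smallest p-values of the list belonged to the contractile genes Smtn (log2 fold change -0.87, standard error 0.33) and Myh11 (-1.12, standard error 0.49). Among its genes made by pericytes, Cspg4 (-0.70, standard error 0.41) and Notch3 (-0.60, standard error 0.41) had negative estimates, and Rgs5 (0.06, standard error 0.32), Kcnj8 (0.23, standard error 0.19) and Abcc9 (0.39, standard error 0.27) had positive ones, all with an edgeR adjusted p of 0.999. These genes were singled out after their values were seen, and the part of mural cells in the Pdgfrb difference was not tested.

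Pdgfra (chromosome 5, 75152292 to 75198215) was read at 255, 190 and 232 CPM in the controls and at 237, 186 and 144 CPM in the mutants. The groups overlapped, since mutant replicate 1 lay above both control replicates 2 and 3, and mutant replicate 3 was the lowest library. For Pdgfra the log2 fold change was -0.26 (standard error 0.20, 95% interval -0.74 to 0.23, edgeR adjusted p = 0.999). Leaving out mutant replicate 3 brought it to -0.09, and leaving out mutant replicate 1 to -0.45.

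The balance of both receptors varied within each group. Per kilobase, the Pdgfra level was 62.7%, 46.3% and 68.1% of the Pdgfrb level in the controls and 95.7%, 56.6% and 44.3% in the mutants. The mutants held both the highest and the lowest of the 6 values. Which receptor stood higher depended on the merged exonic length, 10024 bases for Pdgfra and 5478 for Pdgfrb. In CPM, Pdgfra was above Pdgfrb in control replicates 1 and 3 and mutant replicates 1 and 2, and below it in the other libraries. The difference between the groups does not depend on the length. The mean log2 ratio was -0.78 ± 0.29 in the controls and -0.69 ± 0.57 in the mutants (SD, n = 3 each), a difference of 0.09 (exact permutation test, two-sided p = 1) that turned to -0.22 without mutant replicate 1 and to -0.07 without control replicate 2.

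Of 6 genes around the receptors, which are the platelet-derived growth factor ligand genes Pdgfa, Pdgfb, Pdgfc and Pdgfd, the protease gene Plat and the receptor-like gene Pdgfrl, all were tested, 0 passed at an adjusted p under 0.05, 1 had a positive and 5 a negative estimate, and their median log2 fold change was -0.10. Pdgfa, a ligand of the receptor encoded by Pdgfra, was read at 49.2 ± 6.22 CPM in the controls and 42.1 ± 3.20 CPM in the mutants (SD, n = 3 each; log2 fold change -0.23, standard error 0.12). Plat, whose product tissue plasminogen activator can activate the ligand encoded by Pdgfc, was read at 300.0 ± 25.5 and 337 ± 43.1 CPM (SD, n = 3 each; log2 fold change 0.17, standard error 0.14). Pdgfd, a ligand of the receptor encoded by Pdgfrb, stood at 61.5 CPM in control replicate 2 and at 20.7 to 32.8 CPM in the other 5 libraries (log2 fold change -0.42, standard error 0.37). All of these had an edgeR adjusted p of 0.999.

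Dpt, Pi16 and Cd34 are linked to adventitial fibroblasts and to fibroblasts with progenitor features. Dpt (chromosome 1, 164796644 to 164824266) encodes a small protein that binds decorin and collagen and takes part in collagen fibril assembly. Its level was 336, 236 and 226 CPM in the controls and 296, 474 and 658 CPM in the mutants. Mutant replicates 2 and 3 lay above all controls, whereas mutant replicate 1 lay below control replicate 1. The mean was 266 ± 60.6 CPM in the controls and 476 ± 181 CPM in the mutants (SD, n = 3 each). Its log2 fold change was 0.84 (standard error 0.31, 95% interval 0.11 to 1.57, unadjusted p = 0.0293, edgeR adjusted p = 0.999), and 4.94% of the genes tested differed by at least as much in either direction.

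The estimate for Dpt moved to 0.53 once mutant replicate 3 was left out, and to 1.09 when the library left out was mutant replicate 1. Its unadjusted p in edgeR was above 0.05 with the replicate block (0.072) and without control replicate 2 (0.071), control replicate 3 (0.0936), mutant replicate 2 (0.0621) or mutant replicate 3 (0.107). In DESeq2 the adjusted p of Dpt was 0.519, and it passed the threshold only when mutant replicate 1 was left out (adjusted p = 0.0206), in a set of fits chosen after seeing the data. An exact permutation test of its log2 level gave a two-sided p of 0.2.

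Pi16 (chromosome 17, 29317680 to 29330593) encodes peptidase inhibitor 16, a membrane-anchored protein found on adventitial fibroblasts. Pi16 had 462, 594 and 441 CPM in the controls and 569, 502 and 793 CPM in the mutants. Mutant replicate 3 was the highest, and the other mutants lay within the range of the controls. Its estimated log2 fold change was 0.32 (standard error 0.22, 95% interval -0.20 to 0.84, edgeR adjusted p = 0.999), or 0.10 with mutant replicate 3 left out.

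Cd34 (chromosome 1, 194938819 to 194961279) encodes a sialomucin of the surface of endothelial cells, blood progenitors and stromal cells. The controls had 513, 545 and 557 CPM, the narrowest spread in log2 CPM of the 10 markers there, and the mutants 514, 653 and 677 CPM. The groups overlapped through mutant replicate 1, which was at the level of control replicate 1. Between the groups Cd34 differed by 0.19 in log2 level (standard error 0.16, 95% interval -0.18 to 0.56, edgeR adjusted p = 0.999), which became 0.31 on leaving out mutant replicate 1 and 0.12 on leaving out mutant replicate 3. The 10 endothelial marker genes had summed levels of 2016 to 3002 CPM in the controls and 2250 to 2710 CPM in the mutants, and 5 had positive and 5 negative estimates (median log2 fold change -0.06). In the mutants, replicate 2 was highest in this sum and replicate 3 in Cd34. Part of the fragments of Cd34 cannot be told apart from those of the antisense gene Gm16897 unless the counting used strand, which is not stated, but the overlap covers 2.03% of the exonic bases of Cd34, and Gm16897 had 1002 to 1299 counts against 21565 to 27544 for Cd34. Antisense gene models with no row of their own in the count table also overlap Pdgfra (Gm42802, 4.55% of its exonic bases) and Pi16 (AC162182.1, 3.49%), and Pdgfra overlaps a further model on the opposite strand (Gm42803, 1.66%).

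Of 12 other genes of adventitial and progenitor fibroblasts, all were tested, 0 passed at an adjusted p under 0.05, 5 had positive and 7 negative estimates, and their median log2 fold change was -0.13. Ly6c1 was read at 80.8 ± 11.1 CPM in the controls and 97.3 ± 19.6 CPM in the mutants (SD, n = 3 each; log2 fold change 0.27, standard error 0.17). Clec3b, which encodes the plasminogen-binding protein tetranectin, was read at 45.8 ± 10.5 and 65.3 ± 26.6 CPM (SD, n = 3 each; log2 fold change 0.51, standard error 0.34). Efhd1, a mitochondrial calcium-binding protein gene, had the smallest p of the list. Its level was 41.3, 74.2 and 30.25 CPM in the controls and 24.3, 29.1 and 26.9 CPM in the mutants, all below the lowest control (log2 fold change -0.86, standard error 0.31, unadjusted p = 0.0285, edgeR adjusted p = 0.999).

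The 3 genes whose profile over the 6 libraries was most like that of Dpt, which varied most among the 10 markers, were Rgag4, 4931406H21Rik and 4930519G04Rik. The likeness was measured as the root mean square difference of log2 CPM after each gene was centred on its own mean, and it was 0.14, 0.20 and 0.20 for these genes. All 3 were read at 0.475 to 3.83 CPM, far fewer counts than Dpt. Among the other markers, Cd34 (0.43) and Pi16 (0.44) were closest to Dpt, with 3.96% and 4.40% of the other tested genes closer. Pdgfra was the farthest (0.77, with 82.4% of the tested genes closer). In mutant replicate 3 Dpt, Pi16, Cd34 and Tcf21 were each at their highest, while Pdgfra was at its lowest.

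**Figure D3:**
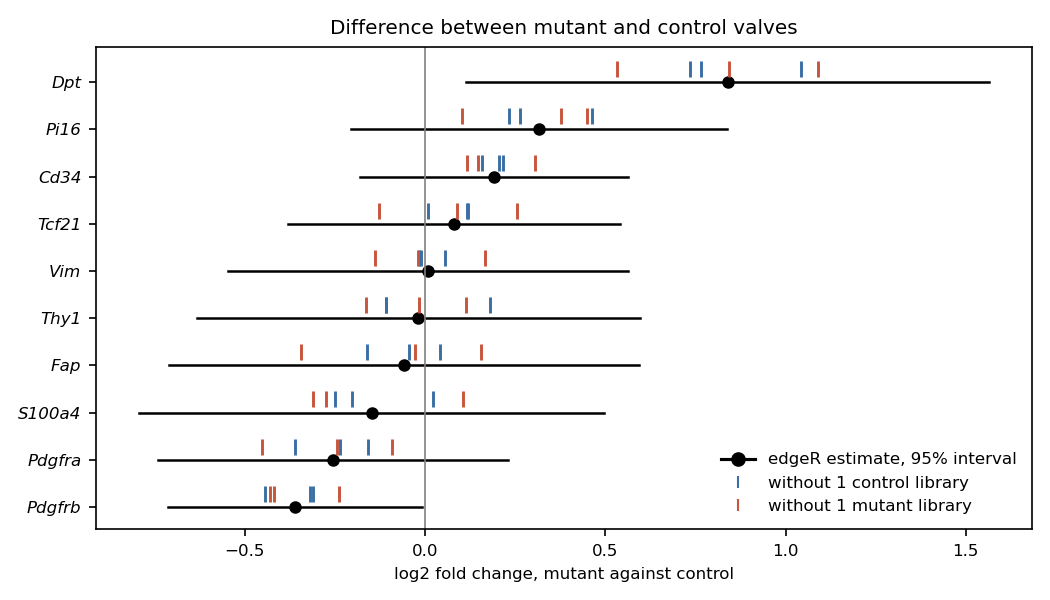
Log2 fold change of each marker, mutants against controls (horizontal axis), with the edgeR estimate as a black point, its 95% interval as a line, and vertical ticks for the fits that each left out 1 control (blue) or 1 mutant (red) library. The intervals of Dpt (0.11 to 1.57) and Pdgfrb (-0.71 to -0.0093) lie on one side of 0 in this fit, and those of the other 8 markers include 0.

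Tcf21 and Thy1 mark subsets of fibroblasts. Tcf21 (chromosome 10, 22817281 to 22820174) encodes a basic helix-loop-helix transcription factor that epicardial cells and cardiac fibroblasts use. Tcf21 was read at 60.9, 60.4 and 52.1 CPM in the controls and at 60.4, 45.3 and 77.7 CPM in the mutants, so that the mutants held both the lowest and the highest library. Its log2 fold change came to 0.08 (standard error 0.19, 95% interval -0.38 to 0.54, edgeR adjusted p = 0.999), turning to -0.13 without mutant replicate 3. The 6 mesothelial marker genes ranged from 119 to 1259 CPM in sum in the controls and from 145 to 543 CPM in the mutants, with negative estimates in all 6. In control replicate 2, the highest in this sum, Tcf21 was at the level of control replicate 1, the lowest in this sum.

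Of 10 other mesenchymal and epicardial transcription factor genes, 0 passed at an adjusted p under 0.05, 4 had positive and 6 negative estimates, and the median log2 fold change was -0.08. Those with the smallest p were Osr1 (log2 fold change -0.40, standard error 0.32), Wt1 (-0.75, standard error 0.84) and Tcf4 (-0.11, standard error 0.13). Osr1 and Wt1, an epicardial and mesothelial factor, were both highest in control replicate 2, at 120 and 21.2 CPM against 45.95 to 67.25 and 2.28 to 9.29 CPM in the other libraries.

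Thy1 (chromosome 9, 44043384 to 44048579) encodes a surface glycoprotein of fibroblast subsets, T cells and neurons. Thy1 levels were 3.97, 5.72 and 3.98 CPM in the controls and 3.65, 5.36 and 4.49 CPM in the mutants, from 143 to 289 counts per library. The highest and the lowest library lay in different groups but the ranges largely coincided. The log2 fold change of Thy1 was -0.02 (standard error 0.26, 95% interval -0.63 to 0.60, edgeR adjusted p = 0.999), with values from -0.16 (mutant replicate 2 left out) to 0.18 (control replicate 2 left out). The 9 T and B cell marker genes had summed levels of 7.15 to 23.5 CPM in the controls and 10.5 to 42.9 CPM in the mutants, with positive estimates in all 9. Mutant replicate 2, the highest in this sum, was the second highest in Thy1. Control replicate 2, the highest in Thy1, had a sum of only 9.89 CPM. Control replicate 1 and mutant replicate 3 had sums of 23.5 and 26.2 CPM, with Thy1 at 3.97 and 4.49 CPM. The part of lymphocytes in the Thy1 level was not tested.

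S100a4 and Fap are used as markers of activated fibroblasts, and S100a4 is also made by leukocytes. S100a4 (chromosome 3, 90603771 to 90606045) encodes a small calcium-binding protein, and 51.7% of its exonic bases are shared with the gene model Gm42674 on the same strand, which has no row of its own in the count table used here. How the counting treated fragments of the shared bases is not given in the sources used here. S100a4 was read at 23.9, 34.0 and 25.9 CPM in the controls and at 15.6, 29.4 and 30.6 CPM in the mutants. The lowest library was mutant replicate 1, and the other mutants lay within the range of the controls. The log2 fold change of S100a4 was -0.15 (standard error 0.27, 95% interval -0.80 to 0.50, edgeR adjusted p = 0.999). The sign turned, to 0.10 and 0.02, when mutant replicate 1 or control replicate 2 was left out.

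The 8 general leukocyte marker genes had summed levels of 301 to 395 CPM in the controls and 368 to 504 CPM in the mutants, with positive estimates in all 8, 2 of them with an unadjusted p under 0.05 (1.59% of all genes tested in that direction). The 9 macrophage marker genes ran from 1452 to 1632 CPM in the controls and from 1914 to 2070 CPM in the mutants, without overlap, and 5 of the 9 had a higher mean in the mutants at an unadjusted p under 0.05, beside the same 1.59%. None of these 17 genes passed at an adjusted p under 0.05 in edgeR, whereas DESeq2 called Lyz2, a lysozyme gene of macrophages (edgeR log2 fold change 0.46, standard error 0.15, DESeq2 adjusted p = 0.00506). Both lists were chosen with earlier results of these data known, so that the share over all genes does not test for an excess in them. The part of leukocytes in the S100a4 level was not tested.

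Of 12 other S100 genes 10 were tested, 0 passed at an adjusted p under 0.05, 5 had positive and 5 negative estimates, and their median log2 fold change was -0.02. The smallest p-values belonged to S100a8 (log2 fold change 1.45, standard error 0.76) and S100a9 (1.47, standard error 0.84), which neutrophils make. They were read at 6.93 and 9.59 CPM in mutant replicate 2, the highest library for both, and at 0.946 and 0.849 CPM in mutant replicate 1. S100a3 stayed under 0.5 CPM in all libraries (log2 fold change -0.76, standard error 0.51).

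Fap (chromosome 2, 62500943 to 62574075) encodes a membrane-bound serine protease of activated fibroblasts. Fap had 8.45, 7.02 and 9.39 CPM in the controls and 5.44, 10.8 and 7.63 CPM in the mutants, where replicate 1 was the lowest and replicate 2 the highest of all 6 libraries. The log2 fold change of Fap was -0.06 (standard error 0.28, 95% interval -0.71 to 0.59, edgeR adjusted p = 0.999), and leaving out mutant replicate 2 or 1 moved it to -0.34 or 0.16. Of 5 prolyl peptidase genes related to Fap, 0 passed at an adjusted p under 0.05, 2 had positive and 3 negative estimates, and the median log2 fold change was -0.03. By log2 fold change, Dpp8 stood at -0.14 (standard error 0.12), Dpp9 at -0.03 (standard error 0.08) and Dpp4 at -0.24 (standard error 0.73). Dpp4 was read at 65.9 CPM in control replicate 2 and at 9.125 to 29.98 CPM in the other libraries.

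Of 13 genes of activated fibroblasts and myofibroblasts, all were tested, 0 passed at an adjusted p under 0.05, 5 had positive and 8 negative estimates, and the median log2 fold change was -0.14. Their summed level lay lower in all mutants (4705 to 7200 CPM) than in all controls (7228 to 12849 CPM). Acta2 and Tagln are in both this list and the smooth muscle and mural list, and Acta2 was read at 2482, 6057 and 2458 CPM in the controls and at 936, 2656 and 2835 CPM in the mutants. Outside control replicate 2 and mutant replicate 1, Acta2 was thus higher in the mutants than in the controls. Tagln went the other way when the same libraries were set aside. Its remaining mutants ranged from 1214 to 1374 CPM, below its remaining controls, which ranged from 1406 to 1551 CPM. These libraries were picked after their values were seen, and the part of smooth muscle in the difference of the summed level was not tested. Tnc, which encodes the matrix protein tenascin C, was read at 13.99, 18.8 and 17.1 CPM in the controls and at 7.51, 11.3 and 6.97 CPM in the mutants, without overlap (log2 fold change -0.95, standard error 0.23, unadjusted p = 0.00422; adjusted p = 0.999 in edgeR and 0.091 in DESeq2). Tagln was lower in all mutants than in all controls (-0.90 by log2 fold change, standard error 0.44), and Ctgf, which encodes connective tissue growth factor, overlapped (-0.42, standard error 0.26).

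Of 14 general fibroblast and interstitial genes, which include the chains of collagen I and III, all were tested, 0 passed at an adjusted p under 0.05, 5 had positive and 9 negative estimates, and the median log2 fold change was -0.11. Ddr2, a receptor for fibrillar collagen, was read at 126 to 157 CPM in the controls and at 104 to 123 CPM in the mutants, without overlap (log2 fold change -0.30, standard error 0.12, unadjusted p = 0.0411, edgeR adjusted p = 0.999). Col15a1 (log2 fold change -0.20, standard error 0.12) and Pdpn (-0.37, standard error 0.28) overlapped between the groups. The summed level of the 14 genes was 25009 to 29971 CPM in the controls and 24576 to 35224 CPM in the mutants, and in the mutants it was highest in replicate 3, as Dpt and Pi16 were.

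Vim (chromosome 2, 13573927 to 13582826) encodes vimentin, which fibroblasts share with endothelial cells, smooth muscle and leukocytes. Vim levels were 2055, 2252 and 2079 CPM in the controls and 1640, 2558 and 2223 CPM in the mutants, which spread on both sides of the controls. The mean was 2129 ± 107 CPM in the controls and 2141 ± 464 CPM in the mutants (SD, n = 3 each). For Vim the estimate was a log2 fold change of 0.0079 (standard error 0.23, 95% interval -0.55 to 0.56, edgeR adjusted p = 0.999), between -0.14 and 0.17 when mutant replicate 2 or mutant replicate 1 was left out.

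Of 10 other intermediate filament genes, 0 passed at an adjusted p under 0.05, 3 had positive and 7 negative estimates, and the median log2 fold change was -0.20. Synm, which encodes a filament protein of muscle cells, was read at 38.4 ± 6.25 CPM in the controls and 24.8 ± 3.35 CPM in the mutants (SD, n = 3 each; log2 fold change -0.63, standard error 0.16, unadjusted p = 0.00573, edgeR adjusted p = 0.999). Nes, which encodes nestin, was read at 62.7 ± 6.03 and 47.2 ± 5.94 CPM (SD, n = 3 each; log2 fold change -0.41, standard error 0.13, unadjusted p = 0.0155, edgeR adjusted p = 0.999). In both genes all mutants lay below all controls. Krt8, a keratin of epithelial and mesothelial cells, was read at 118 CPM in control replicate 2 and at 9.50 to 33.1 CPM in the other libraries.

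The median SD of log2 CPM over the 6 libraries was 0.29 for the 10 markers and 0.24 for all genes tested. Mutant replicate 1 was the lowest library for 5 markers, Pdgfrb, Thy1, S100a4, Fap and Vim, and for 20.1% of the genes tested. Mutant replicate 3 was the highest for 4 markers (16.3% of the genes tested), and control replicate 2 was the highest for 3, Pdgfrb, Thy1 and S100a4 (24.4% of the genes tested). The remaining marker lists had summed levels in the controls and in the mutants of 535 to 1407 and 402 to 1070 CPM for 7 adipocyte genes, 69.9 to 94.5 and 62.5 to 82.4 CPM for 7 Schwann cell genes, and 231 to 498 and 290 to 395 CPM for 9 chondrocyte genes. They were 27.7 to 174 and 82.9 to 198 CPM for 6 melanocyte genes, and 2780 to 10280 and 1318 to 9054 CPM for 5 erythrocyte genes. In these 5 lists the groups overlapped, and 0 genes passed at an adjusted p under 0.05 in edgeR. No gene of any cell type list was at 0 in all libraries, but in the chondrocyte and erythrocyte lists Col2a1, Matn1, Matn3, Hba-a1 and Hba-a2 were at 0 in at least 1.

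**Figure D4:**
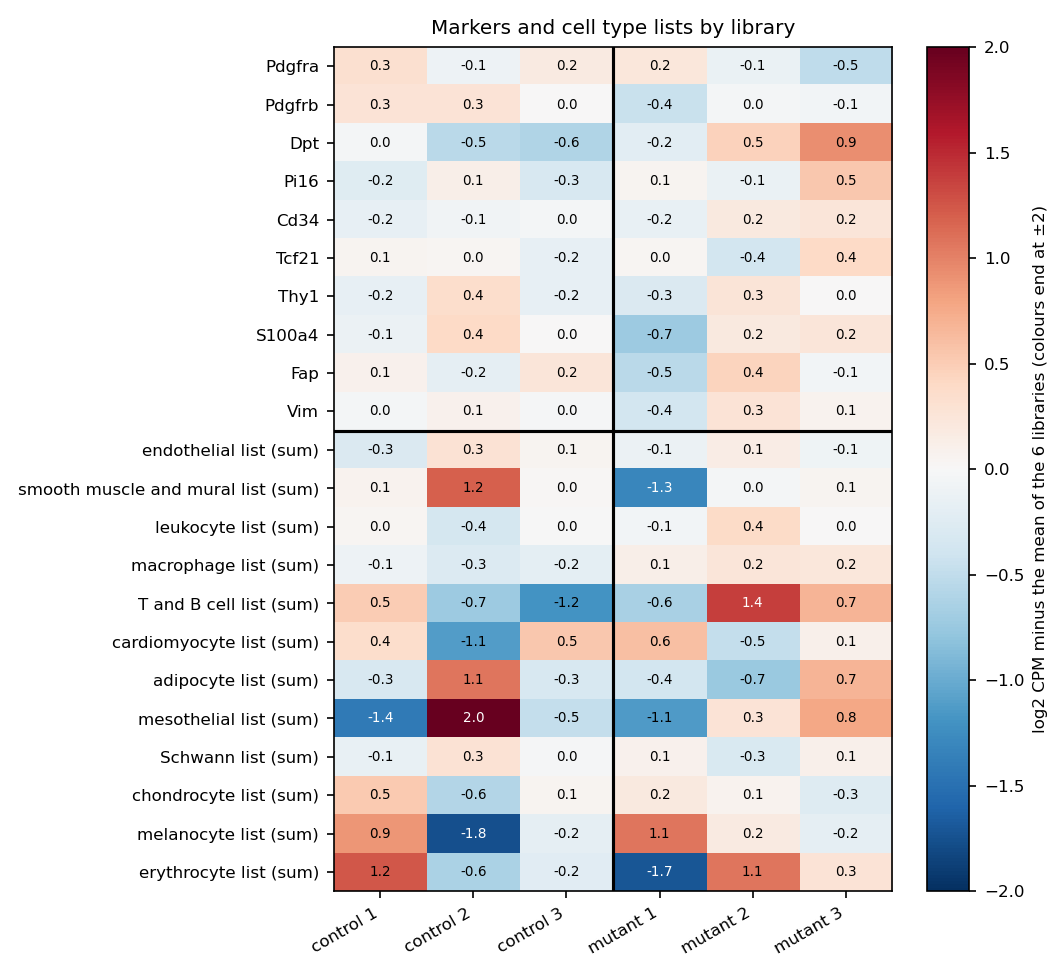
Deviation of each marker (upper block) and of the summed level of each cell type list (lower block) from its mean over the 6 libraries, in log2 CPM, with red above and blue below the mean. Dpt has the widest range of the markers, from -0.61 in control replicate 3 to 0.94 in mutant replicate 3, and the mesothelial list has the largest deviation, 1.98 in control replicate 2.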

How the data were processed

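RNA of aortic valves was sequenced by the authors in 6 libraries. The submitters' processing notes name mm10, FastQC, TopHat2 2.0.13, Bowtie2, Cufflinks and Cuffdiff 2.1.1. The values as deposited are estimated counts per gene, not scaled for library size; 1.66% to 1.87% per library were not whole and were rounded. Differences between the groups came from edgeR 4.0.16 in R 4.3.3 (TMM, quasi-likelihood F test, a minimum of 10 counts in 3 libraries), tested on simulated data. Benjamini-Hochberg adjustment ran over all 15354 genes tested. Alternatives were DESeq2 1.42.0, limma 3.58.1 (voom, with and without sample quality weights), other scalings and filters, the replicate number as a block, and each library left out. Positions and exonic lengths came from GENCODE M21 (GRCm38), in which 89.6% of symbols matched once. The 10 markers and all lists were chosen with earlier results of these data known. The text names the 10 markers, up to 3 genes with the smallest p per list of other genes, and 3 genes most like the most variable marker; genes of the cell type lists were named after their values were seen.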

Additional observations from a re-analysis of the deposited data

How the results depend on the processing

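Under 14 other settings, 0 of the 10 markers had an adjusted p under 0.05, and the lowest adjusted p outside DESeq2 was 0.901. DESeq2 called 26 of 15354 genes, none of them a marker. When single libraries were left out of DESeq2, a set of fits added after seeing the data, 17 to 47 genes were called (38, 27 and 21 without control replicates 1, 2 and 3, and 39, 17 and 47 without mutant replicates 1, 2 and 3), and 0 or 1 markers, the 1 being Dpt without mutant replicate 1 (log2 fold change 1.09, adjusted p = 0.0206). Other reversals of sign were those of Thy1 (0.10 with sample quality weights) and of Vim (-0.015 with the replicate block). In DESeq2 without 1 library, signs turned for Tcf21 (-0.13 without mutant replicate 3), Thy1 (0.18 and 0.11 without control replicate 2 and mutant replicate 1), S100a4 (0.019 and 0.10 without the same libraries), Fap (0.041 and 0.16 without control replicate 3 and mutant replicate 1) and Vim (-0.019, -0.0098, -0.14 and -0.016 without control replicates 1 and 3 and mutant replicates 2 and 3). With single libraries left out of edgeR, the log2 fold change ran from -0.13 to 0.26 for Tcf21, from -0.16 to 0.18 for Thy1, from -0.31 to 0.10 for S100a4, from -0.34 to 0.16 for Fap and from -0.14 to 0.17 for Vim, and it kept its sign for Dpt, Pi16, Cd34, Pdgfra and Pdgfrb. The difference between mutants and controls in the log2 ratio of Pdgfra to Pdgfrb ran from -0.22 to 0.34. The replicate block left 0 calls. Same-numbered libraries did not deviate together in all pairs (correlations of 0.29, 0.08 and 0.03), and the numbers were not treated as pairs. The causes of these shifts were not tested.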
